A study of Mus musculus with 20 samples.

Results

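The mitochondrial ribosomal protein genes of the mouse were examined in gastrocnemius muscle and liver of Adck2+/- and WT mice. The genes were chosen by symbol, as every array probe annotated with Mrpl or Mrps, a number and at most 1 further letter. The choice used no measured value. It gave 110 of the 25697 probes on the array and 76 of its 16593 annotated genes. The 20 Illumina bead arrays held total RNA of 4 groups of 5 samples each, namely Adck2+/- muscle, WT muscle, Adck2+/- liver and WT liver. All mice were of strain B6N, and the methods describe males. The Adck2+/- mice carried 1 disrupted Adck2 allele in every tissue, from a targeted embryonic stem cell line, and which cell clone gave the line was not given in the sources used here. The labels give an age of 3 years for all 20 samples, whereas the methods give 6 months for the mice used for RNA.

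The mitochondrial ribosome translates the few messages encoded by mitochondrial DNA, all of which specify subunits of the respiratory chain and of ATP synthase. Its proteins are encoded in the nucleus, made by cytosolic ribosomes and imported, and they assemble with mitochondrial rRNA into a small subunit, which decodes the message, and a large subunit, which joins the amino acids. Some have a counterpart in bacterial ribosomes and others exist only in mitochondria. By where the product sits, 49 genes belonged to the large subunit and 26 to the small subunit. Mrps18a and Mrps30 carry small-subunit names but their products sit in the large subunit, and they were counted there. Mrps36 was not classed, because its product is now known as a component of the alpha-ketoglutarate dehydrogenase complex.

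Detection counts were similar across the groups. Between 11626 and 12604 of all probes, and 94 to 98 of the 110 probes of these genes, had a detection p under 0.05 on each array, and the median signal ranged from 125.8 to 219. Muscle and liver arrays showed their tissue's markers, with 7 of 7 skeletal muscle markers detected in muscle and 5 of 6 hepatocyte markers in liver, where the Fgb probe stayed at background. The Adck2 probe was detected on 2 Adck2+/- and 1 WT muscle arrays and on 3 Adck2+/- and 0 WT liver arrays, so the genotype could not be checked from it. A gene was kept in a tissue if its probe was detected on at least 5 of the 10 arrays, and 70 of the 76 genes were kept in muscle, 70 in liver and 69 in both. Mrpl15 was kept in liver alone and Mrpl45 in muscle alone. Mrpl19, Mrpl21, Mrpl32, Mrps14 and Mrps36 were detected on 0 arrays of either tissue. Signals are given on a log2 scale after normalization within each tissue, and each difference is Adck2+/- minus WT with its standard error.

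In muscle most of these genes lay below WT in the Adck2+/- mice, but no single gene passed the test. Of the 70 genes kept, 55 had a difference below 0, against 52.2% of all 8424 genes tested. Their median difference was -0.22, against -0.01 for all genes. By limma with Benjamini-Hochberg adjustment over all genes, 0 of the 70 were called at an adjusted p under 0.05, where 1.89% of all genes were called. At an adjusted p under 0.1 there were 4, against 7% of all genes. At an unadjusted p under 0.05 there were 30, against 22.3% of all genes, of which 28 lay lower and 2 higher in Adck2+/- muscle, against 13.7% and 8.58% of all genes. The methods' t-test, paired by replicate number, gave 18 at an unadjusted p of 0.05 or less, against 16.7% of all genes, and 0 after adjustment. In bulk tissue, fewer cells of a type and less RNA per cell cannot be told apart.

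**Figure D1:**
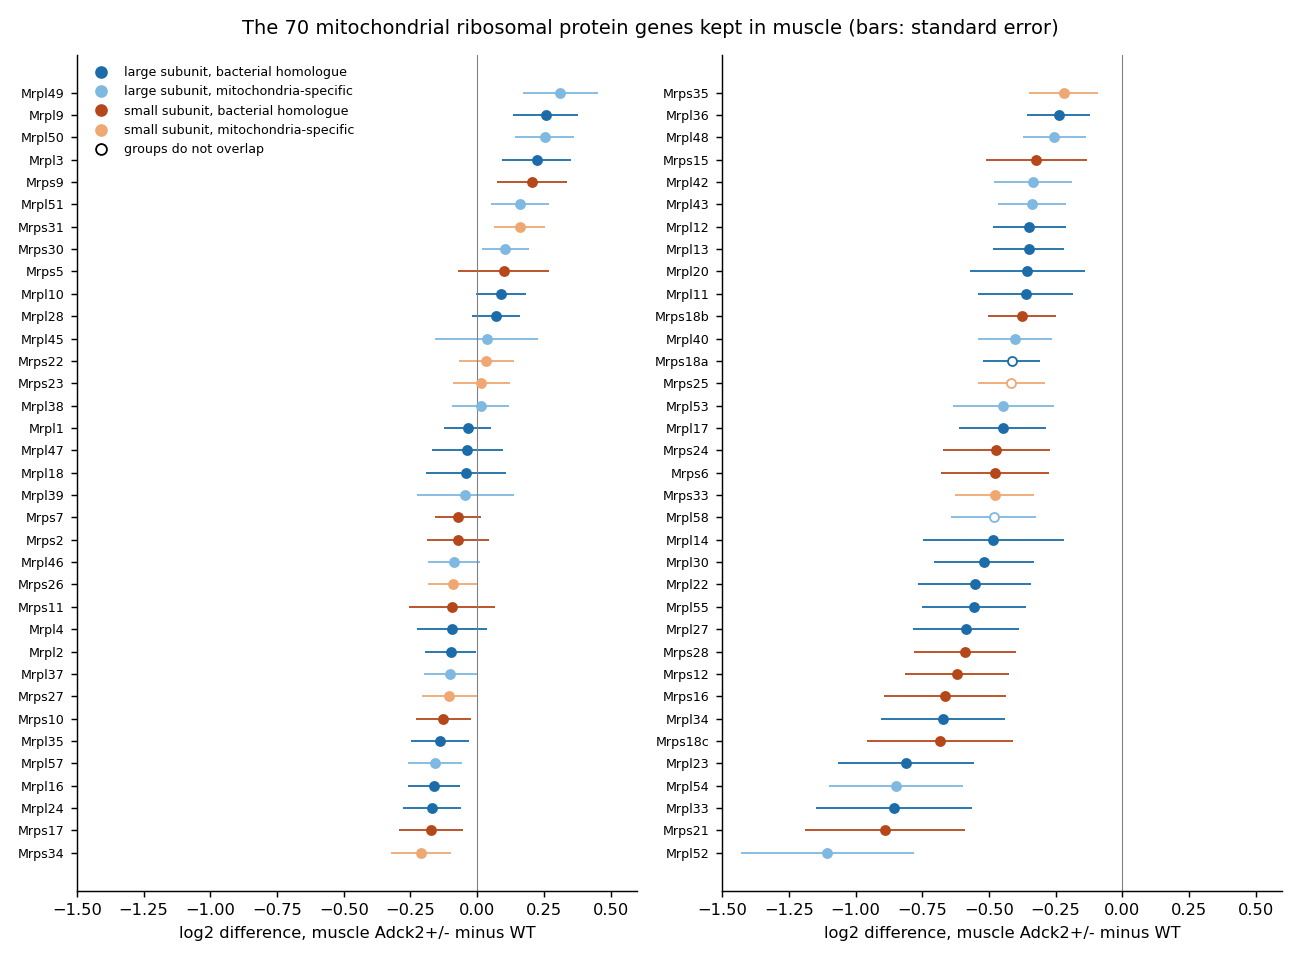
Difference in log2 signal between Adck2+/- and WT muscle for the 70 genes kept, sorted by size, with standard errors as bars and colour for subunit and origin. Open circles mark Mrps18a, Mrps25 and Mrpl58, whose groups do not overlap, and 55 of the 70 points lie left of 0.

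Genes with a bacterial counterpart lay further below WT than those found only in mitochondria, in both subunits. Of the large-subunit genes with a bacterial counterpart, 23 of 27 were below 0 with a median of -0.35, and of the mitochondria-specific ones 12 of 18 with a median of -0.13. In the small subunit the same split gave 14 of 16 with a median of -0.35, and 6 of 9 with a median of -0.10. The large subunit as a whole had a median of -0.24 over 45 genes and the small subunit -0.21 over 25. These medians are descriptions and the difference between the classes was not tested.

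The largest difference among the large-subunit genes, and among all 70, was that of Mrpl52 (chr14:54426909-54429750, coordinates of the RefSeq gene in GRCm38.p6), which encodes a mitochondria-specific protein of the large subunit. Its log2 signal was 9.23, 8.78, 8.80, 9.75 and 10.59 in Adck2+/- muscle, against 10.94, 9.98, 10.87, 10.56 and 10.33 in WT muscle. The first 4 Adck2+/- arrays were below every WT array, and the fifth exceeded 3 of them. The means were 9.43 ± 0.76 and 10.53 ± 0.39 (SD, n = 5 each), a difference of -1.11 ± 0.32 (SE) and a ratio of 0.46, with an adjusted p of 0.091 by limma. Mrpl33 (chr5:31613951-31622644), the counterpart of bacterial L33, had 12.03, 11.09, 11.61, 12.57 and 12.91 in Adck2+/- muscle, against 13.07, 12.59, 13.02, 13.08 and 12.71 in WT muscle (difference -0.85 ± 0.29, adjusted p = 0.122). Again only the fifth Adck2+/- array reached into the WT range, and the other kept Mrpl33 probe gave a close value of -0.76.

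Mrpl54 (chr10:81264722-81266926), another mitochondria-specific large-subunit gene, had 11.36, 10.47, 10.80, 11.62 and 11.997 in Adck2+/- muscle, against 12.28, 11.81, 12.34, 12.02 and 12.04 in WT muscle. The difference was -0.85 ± 0.25 with an adjusted p of 0.092, and the fifth Adck2+/- array alone overlapped WT. Mrpl23 (chr7:142532467-142540747), the counterpart of bacterial L23 at the exit of the peptide tunnel, had 11.59, 10.88, 10.99, 11.93 and 12.35 in Adck2+/- muscle, against 12.56, 12.07, 12.57, 12.34 and 12.27 in WT muscle (-0.81 ± 0.25, adjusted p = 0.103). The pattern across arrays was that of Mrpl54. Mrpl34, the counterpart of L34, differed by -0.67 ± 0.23 (adjusted p = 0.125). Mrpl27, Mrpl55, Mrpl22 and Mrpl30, all with bacterial counterparts, followed with differences from -0.59 to -0.52.

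Among the small-subunit genes the largest difference was that of Mrps21 (chr3:95862634-95871514), the counterpart of bacterial S21. Its signal was 11.31, 10.70, 10.82, 11.87 and 12.45 in Adck2+/- muscle, against 12.55, 11.92, 12.54, 12.44 and 12.15 in WT muscle. Arrays 1 to 4 of the Adck2+/- mice were below every WT array and array 5 was above 3 of them (-0.89 ± 0.30, adjusted p = 0.117). Mrps18c, Mrps16, Mrps12 and Mrps28, whose products have bacterial counterparts and of which that of Mrps12 lies at the decoding site, differed by -0.68 ± 0.27, -0.67 ± 0.23, -0.62 ± 0.20 and -0.59 ± 0.19. Their adjusted p-values by limma were 0.170, 0.122, 0.104 and 0.110. In all 4 genes the Adck2+/- arrays 2, 3 and 1 were the lowest of the 10, in that order.

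For 3 of the 70 genes every Adck2+/- muscle array was below every WT array, against 3.02% of all genes in that direction, and for 0 genes every Adck2+/- array was above, against 3.22%. Mrps18a (chr17:46111004-46128908), the large-subunit counterpart of bacterial S18, had 11.14, 10.75, 10.87, 11.03 and 11.12 in Adck2+/- muscle, against 11.43, 11.42, 11.32, 11.53 and 11.28 in WT muscle. It had the smallest adjusted p of the family, 0.068 (-0.42 ± 0.11), and its spread within Adck2+/- muscle (SD 0.17) was well under that of Mrpl52. Mrps25 (chr6:92169512-92184023), a mitochondria-specific small-subunit gene, had 8.37, 7.95, 8.05, 8.52 and 8.41 in Adck2+/- muscle, against 8.65, 8.59, 8.83, 8.67 and 8.62 in WT muscle (-0.42 ± 0.13, adjusted p = 0.096). This separation held for its brightest probe alone, since its other kept probes gave 0.0046 and 0.20. Mrpl58 (chr11:115403724-115412674), which encodes a peptidyl-tRNA hydrolase built into the large subunit, had 8.26, 7.51, 7.84, 8.31 and 8.35 in Adck2+/- muscle, against 8.47, 8.42, 8.61, 8.63 and 8.53 in WT muscle (-0.48 ± 0.16, adjusted p = 0.114).

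**Figure D2:**
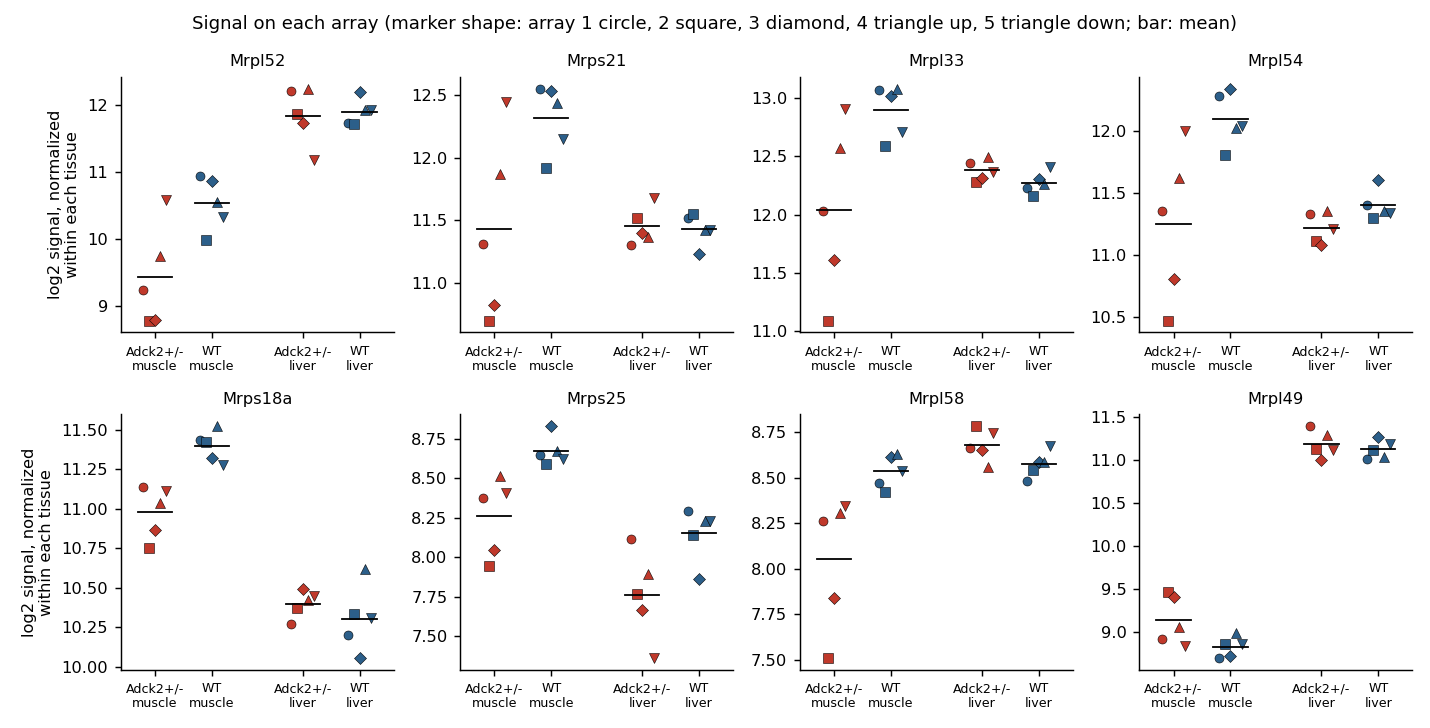
Normalized log2 signal of 8 genes on each array, with Adck2+/- left of WT, muscle left of liver, marker shape for the array number and a bar for the group mean. Muscle and liver were normalized separately, so that levels compare within a tissue. The fifth Adck2+/- muscle array (triangle pointing down) lies within the WT range for Mrpl52, Mrps21, Mrpl33 and Mrpl54, and below it for Mrps18a, Mrps25 and Mrpl58.

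The sequences upstream of the 3 genes with the largest differences and of the 3 genes whose groups did not overlap are shown, because promoters of this family are known to be rich in sites of a few factors. Each line gives the 250 bases before the annotated RefSeq start (GRCm38.p6), 5′ to 3′ on the gene's strand. The start of Mrpl58 is that of its listed transcript and lies inside the span given above for the gene. Capitals mark the letters CCGGAAG, as bound by ETS factors such as GABP, GCATGCGC, part of the site of NRF1, and AAGATGGC, a YY1 core, on either strand.
Mrpl52, chr14:54426659-54426908, plus strand: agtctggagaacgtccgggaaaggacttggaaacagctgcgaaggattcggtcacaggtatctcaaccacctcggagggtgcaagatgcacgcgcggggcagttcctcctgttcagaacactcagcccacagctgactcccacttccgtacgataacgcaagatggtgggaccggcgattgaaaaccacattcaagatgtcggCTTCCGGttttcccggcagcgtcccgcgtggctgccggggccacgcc
Mrps21, chr3:95871515-95871764, minus strand: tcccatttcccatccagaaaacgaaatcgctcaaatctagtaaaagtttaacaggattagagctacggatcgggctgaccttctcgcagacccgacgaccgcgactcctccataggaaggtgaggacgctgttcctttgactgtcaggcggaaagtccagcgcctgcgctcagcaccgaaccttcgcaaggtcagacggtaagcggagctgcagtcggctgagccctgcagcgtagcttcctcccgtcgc
Mrpl33, chr5:31613701-31613950, plus strand: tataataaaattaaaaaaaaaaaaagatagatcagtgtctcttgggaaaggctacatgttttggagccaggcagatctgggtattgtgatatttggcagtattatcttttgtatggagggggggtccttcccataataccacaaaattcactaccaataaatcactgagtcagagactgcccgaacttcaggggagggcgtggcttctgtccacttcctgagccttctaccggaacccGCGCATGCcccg
Mrps18a, chr17:46110754-46111003, plus strand: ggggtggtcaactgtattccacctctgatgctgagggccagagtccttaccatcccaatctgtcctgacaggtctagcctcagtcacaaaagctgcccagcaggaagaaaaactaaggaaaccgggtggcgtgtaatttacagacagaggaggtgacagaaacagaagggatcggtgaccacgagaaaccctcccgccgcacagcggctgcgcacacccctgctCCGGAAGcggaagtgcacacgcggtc
Mrps25, chr6:92184024-92184273, minus strand: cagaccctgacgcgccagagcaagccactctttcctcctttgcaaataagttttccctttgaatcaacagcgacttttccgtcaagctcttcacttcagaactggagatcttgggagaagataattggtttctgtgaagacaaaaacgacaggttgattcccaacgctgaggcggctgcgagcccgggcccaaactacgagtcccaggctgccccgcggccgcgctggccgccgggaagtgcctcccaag
Mrpl58, chr11:115403502-115403751, plus strand: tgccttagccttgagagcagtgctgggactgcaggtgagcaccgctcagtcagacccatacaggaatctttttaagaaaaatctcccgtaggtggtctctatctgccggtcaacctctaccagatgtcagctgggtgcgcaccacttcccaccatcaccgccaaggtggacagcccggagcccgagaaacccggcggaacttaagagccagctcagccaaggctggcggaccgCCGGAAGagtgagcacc

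In these stretches Mrpl52, Mrps18a and Mrpl58 held CCGGAAG 47, 26 and 17 bases before the start, Mrpl33 held GCATGCGC 12 bases before it, and Mrps21 and Mrps25 held none of the 3. With 50 more bases past the start, Mrps21 and Mrpl33 held CCGGAAG too, and Mrps18a held AAGATGGC. In windows of 300 bases, which run 50 bases past the start and were given for 67 of the 76 genes, CCGGAAG or its reverse complement occurred in 26 genes (38.8%). The share was 9.9% over all 27025 genes with a window and 20.4% over the 6866 of them that were kept in muscle. AAGATGGC occurred in 12 of the 67 (17.9%), against 3.2% of all genes and 5.6% of the genes kept in muscle, and GCATGCGC in 8 (11.9%), against 3.0% and 6.3%. TATAAA occurred in 5 of the 67 (7.5%), against 15.7% of all genes and 9.4% of the genes kept in muscle. The median muscle difference was -0.45 for the 25 kept genes with CCGGAAG and -0.11 for the 38 without it, and -0.14 for the 11 with AAGATGGC and -0.21 for the 52 without. For GCATGCGC it was -0.38 for the 7 with it and -0.17 for the 56 without. The differences between genes with and without a motif were not tested, and no such split is given for all genes kept in muscle. A match describes letters in the window and is not a measured site.

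The family's level in muscle differed widely among the Adck2+/- arrays. Averaged over the 70 genes, as deviations from each gene's mean over the 10 muscle arrays, the family stood at -0.09, -0.40, -0.28, 0.02 and 0.10 on the Adck2+/- arrays 1 to 5, against 0.23, 0.07, 0.05, 0.20 and 0.10 on the WT arrays. Arrays 1 to 4 of the Adck2+/- mice were below all WT arrays, array 4 by little, and array 5 lay within the WT range. On Adck2+/- arrays 1 to 5, 39, 45, 43, 25 and 9 of the 70 genes were below the lowest WT value. Above the highest WT value were 11, 10, 8, 11 and 4. These counts have no share of all genes beside them, so they are descriptions. The SD among Adck2+/- arrays exceeded that among WT arrays for 54 of the 70 genes, against 62.3% of all genes, with medians of 0.23 and 0.14. Without Adck2+/- array 5, 16 of the 70 genes were called, all lower, among 701 calls, and leaving out any other muscle array left 0. Array 5 had the highest family mean of the Adck2+/- arrays, so leaving it out widens the family's difference by construction.

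Nuclear genes of the cytosolic ribosome, of the respiratory chain and of ATP synthase were set beside the family. The cytosolic ribosomal proteins, which make up the ribosome of the cytoplasm, stood at -0.32, -0.72, -0.51, 0.10 and 0.29 on the Adck2+/- muscle arrays, against 0.36, 0.03, 0.37, 0.24 and 0.16 on the WT arrays, in the same order of Adck2+/- arrays. Complex I, the entry point of the respiratory chain, stood at -0.21, -0.65, -0.51, 0.06 and 0.25, against 0.38, 0.07, 0.17, 0.33 and 0.13. The median differences of these lists were -0.56 over 54 cytosolic ribosomal proteins, -0.45 over 32 complex I subunits, -0.56 over 12 cytochrome c oxidase subunits and -0.45 over 14 ATP synthase subunits. None of their genes was called in either direction, and 33, 17, 6 and 9 of them lay lower at an unadjusted p under 0.05, with 0, 1, 0 and 1 higher. The shares of all genes were 13.7% lower and 8.58% higher.

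Proteins that act with the mitochondrial ribosome without being named after it had medians close to or above 0. The 17 mitochondrial aminoacyl-tRNA synthetases, which charge the tRNAs, had a median difference of 0.03 with 6 below 0. The 15 mitochondrial translation factors had 0.03 with 6 below 0, and the 24 genes of ribosome assembly and RNA handling had 0.11 with 8 below 0. None of these genes was called, and 1, 0 and 6 lay higher and 0, 1 and 0 lower at an unadjusted p under 0.05. Of all genes, 8.58% lay higher and 13.7% lower at that threshold. Of the ribosomal proteins with other symbols, Chchd1 differed by -0.48 ± 0.14 (adjusted p = 0.095), Gadd45gip1 by -0.11 ± 0.24, Ptcd3 by 0.16 ± 0.14 and Dap3 by 0.20 ± 0.11.

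**Figure D3:**
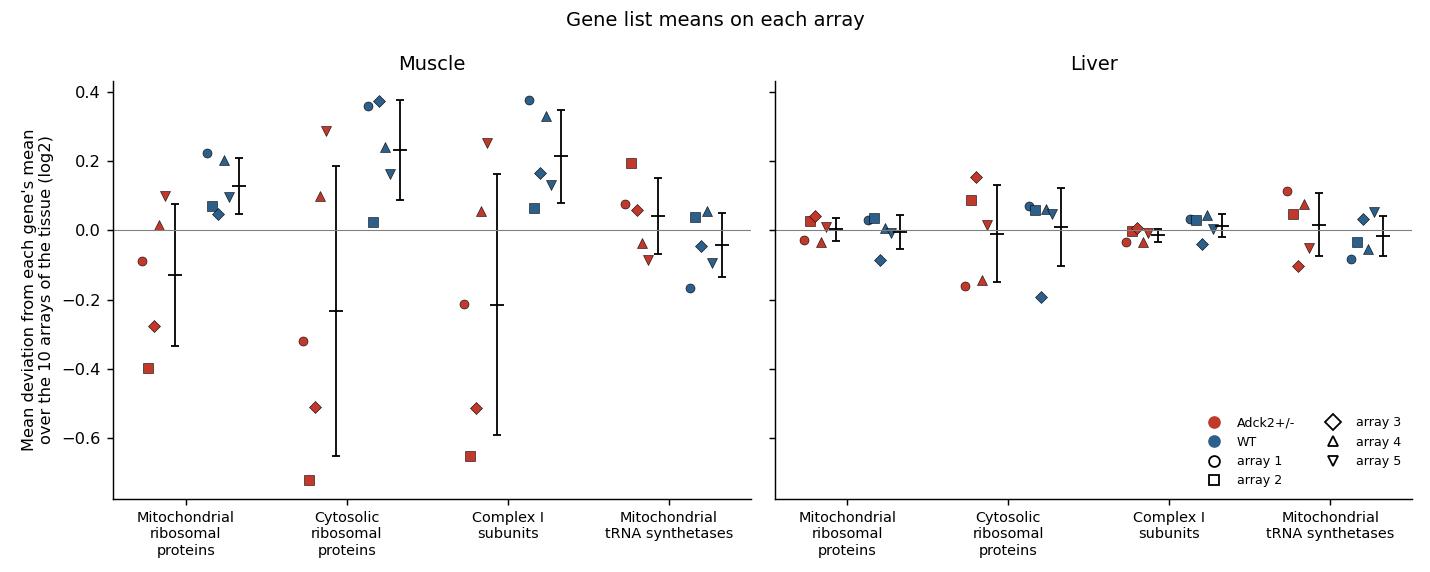
Mean deviation of 4 gene lists from each gene's own mean on every array, in muscle and in liver, Adck2+/- left of WT, with marker shape for the array and mean and SD as bars beside the points. In muscle, arrays 1 to 3 of the Adck2+/- mice are below all WT arrays for the first 3 lists, while in liver the mitochondrial ribosomal proteins stay between -0.08 and 0.04.

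Several marker sums also differed among the muscle arrays. The summed signal of 3 erythroid markers, all detected in muscle, was 4400, 3805, 5057, 14427 and 10384 on the Adck2+/- arrays and between 6444 and 11803 on the WT arrays, so that arrays 1 to 3 were the lowest. The sum of 7 skeletal muscle markers, all detected, was 184924, 186346, 183866, 178673 and 159831 on the Adck2+/- arrays, against 162004 to 179696 on the WT arrays. Arrays 1 to 3 were thus above every WT array and array 5 was below every WT array. A WT array stood out for the 6 slow fibre markers, all detected. They summed to 18749 on WT array 3, against 40984 to 52919 on the other WT arrays and 37144 to 46381 on the Adck2+/- arrays. The sum of 4 fibroblast markers, all detected, was 21156, 20837 and 21089 on the Adck2+/- arrays 2, 3 and 5, above all WT arrays (at most 19742). The raw median signal was outside the WT range of 131.7 to 172.8 on Adck2+/- array 3 (189.8) and array 4 (131.3). The sum of 6 hepatocyte markers, of which Alb and Fgb were at background, was highest on Adck2+/- array 4 (5657, against at most 2681 on WT arrays), and the sum of 5 adipocyte markers, with Fabp4 at background, on Adck2+/- array 5 (4619, against at most 2440 on WT arrays). The part of these measures in the differences was not tested.

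The family's differences were also split by signal and by gene size. The 35 brighter genes had a median difference of -0.34 and the 35 dimmer genes a median of -0.14. By genomic span, 45 of the 70 genes fell among the 2106 shortest genes tested in muscle, up to 9240 bases, where their median was -0.34, against -0.11 for all genes of that size. The 16 genes among the next 2105 by span had a median of -0.10, against -0.01 for all genes there. The 3 and 6 genes of the longer classes had medians of -0.22 and -0.18, against 0.03 and 0.01 for all genes, so that there was no steady order with size. Short genes as a whole lay lower in Adck2+/- muscle, and the family's median was below that of all genes in each size class. The part of gene size or signal in the family's difference was not tested.

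A smaller number of genes lay above WT in Adck2+/- muscle. The largest difference was that of Mrpl49, a mitochondria-specific large-subunit gene, with 8.91, 9.46, 9.40, 9.05 and 8.83 in Adck2+/- muscle, against 8.69, 8.85, 8.72, 8.98 and 8.86 in WT muscle (0.31 ± 0.14, adjusted p = 0.211). The Adck2+/- arrays 2 and 3, on which the family's mean was lowest, were the highest here. Mrpl9, the counterpart of L9, and Mrpl50, a mitochondria-specific protein, followed with 0.26 ± 0.12 and 0.25 ± 0.11. Mrpl3, the counterpart of L3, differed by 0.22 ± 0.13 on its brightest probe and by 0.57 ± 0.20 on its other kept probe.

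Of the 21 genes with several kept probes, 7 had probes of opposite sign in the muscle comparison and 3 had probes over 0.5 apart. For Mrpl51 the brightest probe gave 0.16 and another -0.64 ± 0.19, and for Mrps18b the 2 probes gave -0.38 and 0.16. The values for Mrpl1, Mrpl37, Mrpl47 and Mrpl48 lay closer together, with the brightest probe slightly below 0 in each (-0.04, -0.10, -0.04 and -0.25) and another above 0. Which transcripts these probes read was not analysed here.

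In liver the family's median was close to 0. Of the 70 genes kept, 28 were below 0, against 47.2% of all 8484 genes, and the median difference was 0.04, against 0.01 for all genes. By limma, 0 were called at an adjusted p under 0.05, where 0.0118% of all genes were called, and 3 had an unadjusted p under 0.05, against 7.07% of all genes. The methods' t-test gave 3 unadjusted, against 5.63% of all genes, and 0 after adjustment. For 0 of the 70 genes did the groups separate, against 1.8% of all genes. On the scale of the deposited value table, which was not normalized, the median of all genes was 0.27 and 69 of the 70 genes were above 0, with a family median 0.09 above that of all genes. With each array scaled to its median, 60 of the 70 genes were above 0 and the family lay 0.05 above all genes.

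Mrps15, the counterpart of bacterial S15 in the small subunit, had the largest difference in liver. Its signal was 9.46, 9.72, 9.53, 9.26 and 9.26 in Adck2+/- liver, against 10.03, 10.01, 9.66, 9.88 and 9.82 in WT liver (-0.44 ± 0.13, adjusted p = 0.474). The groups overlapped by the second Adck2+/- and the third WT array. Mrps25 was lower here as in muscle, with 8.12, 7.77, 7.66, 7.89 and 7.36 in Adck2+/- liver, against 8.29, 8.14, 7.86, 8.23 and 8.23 in WT liver (-0.39 ± 0.15, adjusted p = 0.600). Its other probes gave -0.12 and 0.09, and its sign turned on the value table as deposited (0.03). Mrpl36, the counterpart of L36, had the third unadjusted p under 0.05, at 0.24 ± 0.10 (adjusted p = 0.655).

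The 10 genes with the largest differences in muscle had liver differences on both sides of 0, from -0.18 for Mrpl54 to 0.28 for Mrps12, and Mrpl34 was at 0.20 ± 0.23. Mrpl52 had 12.21, 11.87, 11.73, 12.25 and 11.18 in Adck2+/- liver, against 11.74, 11.72, 12.20, 11.94 and 11.93 in WT liver, a difference of -0.06 ± 0.20. All WT values lay within the range of the Adck2+/- values. Mrps21 differed by 0.03 ± 0.11, Mrpl33 by 0.10 ± 0.10 (its brightest liver probe, while the probe used in muscle gave -0.08), Mrpl58 by 0.10 ± 0.10, Mrps18a by 0.10 ± 0.12 and Mrpl54 by -0.18 ± 0.11. The other genes among the 10 largest liver differences were Mrps12 (0.28 ± 0.22), Mrpl57 (0.23 ± 0.14), Mrpl4 (-0.23 ± 0.17), Mrps6 (-0.22 ± 0.13), Mrpl12 (0.22 ± 0.14), Mrps35 (-0.21 ± 0.11) and Mrps5 (-0.21 ± 0.29).

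In liver, 8 of the 21 genes with several kept probes had probes of opposite sign, namely Mrpl1, Mrpl13, Mrpl33, Mrpl48, Mrpl49, Mrpl51, Mrps7 and Mrps25, and 0 had probes over 0.5 apart. Among the liver genes with a wide spread, the same arrays stood out. Mrpl9 had 8.52, 9.42, 9.79, 8.23 and 9.69 in Adck2+/- liver, against 9.59, 9.68, 8.06, 8.78 and 8.79 in WT liver. Mrps5, the counterpart of S5, had 8.11, 9.37, 9.62, 8.34 and 9.26 in Adck2+/- liver, against 9.44, 9.49, 8.65, 8.92 and 9.27 in WT liver. In both genes the Adck2+/- arrays 1 and 4 and the WT array 3 were the lowest of the 10. Without these 3 arrays, a choice made with their values known, the family's median was 0.02 and 0 genes were called.

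The genotype effect in muscle was also set against that in liver, gene by gene, as an interaction over all 20 arrays, taken as independent because the labels do not tie a muscle sample to a liver sample, although the methods speak of 5 mice per genotype. By limma, 0 of the 69 genes kept in both tissues were called, against 0.0409% of 7339 genes. At an unadjusted p under 0.05 there were 23, all with the lower effect in muscle, against 9.4% of all genes in that direction. In all, 55 of the 69 differences between the effects were below 0, against 54.8% of all genes. The median was -0.26, against -0.04 for all genes. The smallest adjusted p was 0.202, for Mrps18b (-0.53 ± 0.16) and Mrps18a (-0.51 ± 0.16). Without Adck2+/- muscle array 5, Mrpl23, Mrpl52 and Mrps21 were called, and the calls over all genes at that setting are not given here. That array had the highest family mean of the Adck2+/- muscle arrays (0.10), so leaving it out lowers the muscle effect by construction.

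Both comparisons used separate arrays, and their signs were counted over the 69 genes, of which all but Mrpl33, Mrpl51 and Mrps11 were read by the same probe in both tissues. Of these, 26 lay below WT in both tissues, 29 below WT in muscle and above it in liver, 12 above WT in both, and 2 above WT in muscle and below it in liver. Across genes, which are not independent replicates, Pearson's r between the differences was 0.05.

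**Figure D4:**
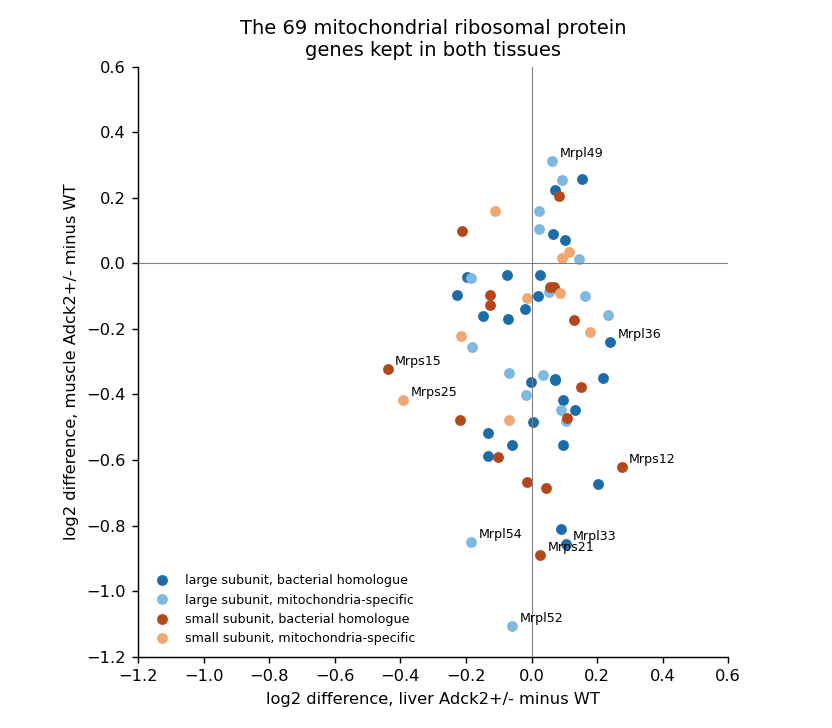
Difference between Adck2+/- and WT in muscle (vertical) against that in liver (horizontal), in log2 units on equal axes, for the 69 genes kept in both tissues. The points spread down to -1.11 in muscle but stay between -0.44 and 0.28 in liver.

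Muscle and liver of WT mice were compared after normalizing the 20 arrays together, as a measure of how the family's signals differ between the tissues. Of 71 genes kept, 54 were called, 48 of them higher and 6 lower in muscle, against 41.3% and 36.9% of all 9563 genes. The WT muscle arrays were all above the WT liver arrays for 47 genes and all below for 6, against 35.4% and 31.7% of all genes. In all, 59 of the 71 were above 0, against 52.2% of all genes. The median difference was 0.63, against 0.08 for all genes. The large subunit had 31 genes called higher and 5 lower of 46, and the small subunit 17 higher and 1 lower of 25. The complex I subunits had 29 of 32 called higher in muscle and 0 lower, and the cytosolic ribosomal proteins 15 higher and 10 lower of 54.

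Mrps23 (chr11:88194106-88211507), a mitochondria-specific small-subunit gene, was the highest in muscle relative to liver. Its signal was 11.50, 11.66, 11.26, 11.53 and 11.46 in WT muscle, against 9.36, 9.36, 8.76, 9.07 and 8.85 in WT liver, a difference of 2.40 ± 0.14 (SE) and a ratio of 5.29 (adjusted p = 4.3e-13 by limma). Mrpl42 had 13.15, 13.09, 13.07, 13.23 and 13.03 in WT muscle, against 10.83, 10.999, 10.30, 10.79 and 10.99 in WT liver (2.33 ± 0.20). In both genes every muscle array was above every liver array. Mrpl53, Mrpl3, Mrpl9, Mrpl48, Mrps18a, Mrpl11 and Mrpl55 followed, with differences of 1.96, 1.75, 1.57, 1.54, 1.44, 1.38 and 1.36. For Mrpl45, which was not well above background on any WT liver array, the muscle signal was at least 1.82-fold higher (adjusted p = 2.0e-07), and it has no place in this order. That bound sets the WT muscle mean against the dimmest detected probe of each liver array.

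Only 6 genes were called lower in muscle. Mrpl15 (chr1:4773198-4785750), the counterpart of L15, was not well above background on any WT muscle array, with 5.01 ± 0.22 in WT muscle and 7.80 ± 0.16 in WT liver (SD, n = 5 each). Its signal was thus at least 5.52-fold higher in WT liver (adjusted p = 3.2e-14). Mrpl52 had 11.10, 10.14, 11.03, 10.72 and 10.49 in WT muscle, against 11.55, 11.54, 12.0004, 11.74 and 11.73 in WT liver (-1.01 ± 0.28, adjusted p = 0.0027). Every muscle array was below every liver array. Mrpl39, Mrps35 and Mrpl24 differed by -0.61, -0.49 and -0.47.

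For Mrpl49 the tissue difference depended on the probe. Its brightest probe gave -2.01 ± 0.13 and a second -0.89, whereas its dimmer probes gave 0.59 and 0.73. Mrps5 had 1 probe at 0.85 and another at -1.36. Of the 21 genes with several kept probes, 2 had probes of opposite sign and 11 had probes over 0.5 apart, the widest of the same sign being Mrps26, at 0.85 and 3.34.

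**Figure D5:**
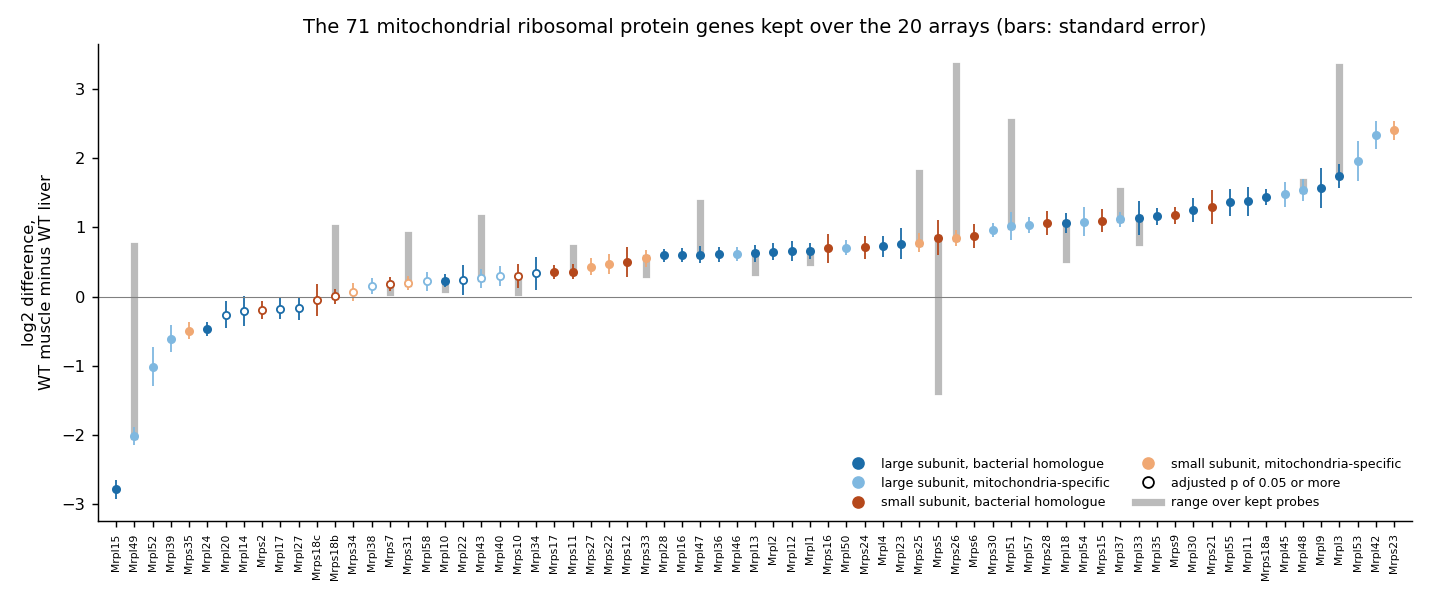
Difference in log2 signal between WT muscle and WT liver for the 71 genes kept over the 20 arrays, with standard errors as thin bars, grey bars for the range over a gene's kept probes and open circles for an adjusted p of 0.05 or more. Mrps23 and Mrpl42 lie highest at 2.40 and 2.33, and Mrpl49 lies at -2.01. The points of Mrpl15 and Mrpl45 show measured means, although Mrpl15 was not well above background in WT muscle nor Mrpl45 in WT liver, so that only the bounds of at least 5.52-fold higher in WT liver and at least 1.82-fold higher in WT muscle hold for them.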

How the data were processed

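Total RNA of 20 tissue samples was read on Illumina bead arrays. The authors deposited a table with a signal intensity per probe and array on a linear scale, not normalized between arrays, and a detection p-value per probe and array against negative-control beads. They also deposited a value table with the same intensities, in which 2165 rows hold another probe of the same gene, 8 of them of this family. The labels and probe IDs are Illumina's, whereas the methods name an Affymetrix array. No slide, scan or RNA quality value was given in the sources used here, and the number of arrays limits the precision. The labels do not say which samples share a mouse, and p-values measure the spread between these samples.

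Intensities were background-corrected from the detection p-values and quantile-normalized within each tissue (limma 3.58.1 in R 4.3.3, neqc, offset 16), or over all 20 arrays for the comparison of WT muscle with WT liver. The interaction used the values normalized within tissues and, per gene, a probe kept in both. Probes stayed in where 5 or more of a tissue's 10 arrays had detection p-values below 0.05, and each gene was represented by its brightest kept probe. Differences were fitted with lmFit and eBayes over all genes kept and adjusted by Benjamini-Hochberg, with calls at an adjusted p under 0.05. The fit was tested on simulated data. The methods' t-test, paired by replicate number, was run on the same values. Sequences and coordinates came from RefSeq tables (GRCm38.p6). Figures were drawn with matplotlib 3.10.9 in Python 3.11.15.

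The genes and the comparison lists were chosen with earlier results of these data known. Genes named in the text were those called, the 10 largest differences per comparison, those whose groups did not overlap, Mrpl52, Mrpl54 and Mrps18a, those whose probes disagreed and those kept in 1 tissue alone. Where over 30 were called, the 10 largest in each direction were named. Mrpl27, Mrpl55, Mrpl22, Mrpl30, Mrpl49, Mrpl50, Mrpl9 and Mrpl3 in muscle, Mrpl9, Mrps21, Mrpl33 and Mrpl58 in liver and the genes of other lists were named after their values were seen. Other settings tried were the background correction, the scaling, the filter, the probe rule, array weights, the value table, 1 fit for all groups, the replicate block and leaving out single arrays.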

Additional observations from a re-analysis of the deposited data

Results flagged for a closer look

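The genes named in the genotype comparisons and between WT tissues, and the family's mean, gave 114 groups of 5 arrays to examine. In 2 of them 1 array stood apart from the other 4 by Dixon's ratio, with a critical value of 0.71. Chance alone gives about 1 such group in 20. Mrpl36 had 11.50 on Adck2+/- liver array 4, against 11.65 to 11.69 on the other Adck2+/- liver arrays. Mrps6 had 9.25 on Adck2+/- liver array 5, against 9.67 to 9.80 on the other Adck2+/- liver arrays.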

How the results depend on the processing

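In muscle the median difference of the family stayed below 0 under every setting tried, between -0.31 and -0.14, but the number of genes called moved with the setting. It was 0 as reported, where 159 of all 8424 genes were called. For the other settings the calls over all genes are given in brackets. It stayed at 0 with an offset of 50 (188) and without the filter on dim probes (70). It was also 0 with only probes detected on every array (185) and with the mean of a gene's kept probes (315). It was 1 without background correction (217), with each probe tested by itself (675 probes) and with eBayes with a trend (200). Array weights gave 2 (353), an adjusted p under 0.1 gave 4 (590) and the value table gave 5 (52). Median scaling gave 10 (310) and 1 fit for all groups gave 10 (428). The methods' t-test gave 18 unadjusted among 1411. Leaving out 1 array at a time gave 0 to 16 calls, the highest without Adck2+/- array 5 (701 over all genes), and medians from -0.26 to -0.17. After seeing the data, arrays were also left out in groups. Leaving out WT array 2 and Adck2+/- array 5 gave 15 calls among 741 over all genes, and leaving out Adck2+/- arrays 4 and 5 gave 28 among 976, against 159 as reported. Arrays 4 and 5 had the highest family means of the Adck2+/- muscle arrays (0.02 and 0.10). Leaving out either or both therefore widens the family's difference by construction. Over all genes, 104 were called higher and 55 lower as reported, against 79 and 231 with median scaling, 123 and 305 with all groups in 1 fit and 13 and 39 on the value table. The cause was not tested.

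In liver the family's median was 0.21 with median scaling and 0.36 on the value table, and 0.015 to 0.047 leaving out 1 array at a time, with 0 calls each time. The methods' t-test gave 3 unadjusted. In the interaction, leaving out 1 array gave 0 to 3 calls, the highest without Adck2+/- muscle array 5. Between WT muscle and WT liver, 28 genes were called on the value table, among 4876 over all genes. The median was 0.42 there and 0.47 with median scaling. Leaving out 1 array gave 52 to 55 calls and medians from 0.60 to 0.67.

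Signs turned for some genes near 0. In muscle, averaging a gene's probes gave 0.011 for Mrpl1, 0.13 for Mrpl47 and -0.13 for Mrpl51, and leaving out 1 array gave Mrpl47 -0.12 to 0.022. In liver, averaging probes gave -0.12 for Mrpl1, -0.14 for Mrpl13, 0.016 for Mrpl48 and -0.011 for Mrpl49. Median scaling gave 0.10 for Mrpl52 and array weights -0.047 for Mrpl51. On the value table Mrps25 was at 0.033, Mrpl4 0.14, Mrps6 0.14, Mrps35 0.14, Mrps5 0.17, Mrpl52 0.28, Mrpl54 0.17 and Mrpl48 0.18. Without WT array 3 and Adck2+/- arrays 1 and 4, Mrps5 was at 0.14, Mrpl49 -0.0058, Mrpl51 -0.20 and Mrps7 -0.025. Leaving out 1 liver array gave Mrpl1 -0.045 to 0.11, Mrpl51 -0.11 to 0.18, Mrpl52 -0.16 to 0.11 and Mrps7 -0.0099 to 0.10.

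In each tissue 1 of 5 same-numbered pairs of arrays correlated above 0.1. So few pairs cannot decide whether the replicate numbers mark paired samples. With the replicate number as a block, 0 genes of the family were called in muscle, 0 in liver, 0 in the interaction and 53 between the tissues. Over all genes 0 were called in muscle, against 159 without the block, and 7425 between the tissues, against 7476 without it.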
